A study of Mus musculus with 6 samples.

Results

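The genes described here are 8 regulators of mitochondrial biogenesis, of 32285 genes in the deposited matrices: *Ppargc1a*, *Ppargc1b*, *Nrf1*, *Nfe2l2*, *Tfam*, *Tfb2m*, *Esrra*, and *Polrmt*. They were taken by their gene symbols, and each symbol belonged to a single gene identifier. The data come from single-cell RNA-Seq of islets of C57/BL6 mice aged 12–14 weeks, 3 WT and 3 β14-3-3ζ–KO, sequenced as 1 library per mouse. KO mice carried *Ywhaz* alleles with a loxP-flanked exon and the Ins1-CreThor knock-in, which is driven by the insulin 1 promoter and so acts in β cells, while the other islet cells keep the gene; the WT mice of the study also carried Cre. *Ywhaz* encodes 14-3-3ζ, a scaffold protein. Whole-islet expression of part of this gene set was of interest to the study as a readout of mitochondrial biogenesis, and the libraries allow the same genes to be read cell type by cell type.

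Mitochondria are built from proteins of 2 genomes. PGC-1α (*Ppargc1a*) and PGC-1β (*Ppargc1b*) are coactivators without DNA binding of their own, which act through transcription factors such as NRF-1 (*Nrf1*), the GA-binding protein (*Gabpa* encodes its DNA-binding subunit, also called nuclear respiratory factor 2), and ERRα (*Esrra*). These factors drive nuclear genes for the respiratory chain and for the mitochondrial transcription machinery, which is made of the RNA polymerase POLRMT (*Polrmt*), the initiation factor TFB2M (*Tfb2m*), and TFAM (*Tfam*), which bends promoter DNA and packages the mitochondrial genome. *Nfe2l2* encodes NRF2, nuclear factor erythroid 2–related factor 2, which answers oxidative stress through KEAP1 and is a different protein from nuclear respiratory factor 2. In β cells this pathway is known for its place in ATP production and so in insulin secretion.

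Because the name *Nrf2* is shared by both factors, the qPCR primers that the study lists under its biogenesis heading were matched to the GENCODE vM21 transcripts (GRCm38). They are shown to say which gene each name stands for.
Nrf1 forward: gcacctttggagaatgtggt
Nrf1 reverse: ctgagcctgggtcattttgt
Nrf2 forward: ttcaccggggaacagaacag
Nrf2 reverse: acgttgtccccatttttgcg
Ppargc1a forward: aagtgtggaactctctggaactg
Ppargc1a reverse: gggttatcttggttggctttatg
The pair named Nrf2 matched *Gabpa* and not *Nfe2l2*, with a product of 166 bases in the coding sequence of both of the 2 *Gabpa* protein-coding transcripts that held it (chr16:84857155-84857525, plus strand). The *Nrf1* pair gave 165 bases of coding sequence in 13 protein-coding *Nrf1* transcripts (chr6:30098558-30115018, plus strand), and the *Ppargc1a* pair 75 bases of coding sequence in 2 transcripts (chr5:51474363-51490042, minus strand). The *Ppargc1b* pair matched its own gene, and no transcript held the pair listed for *Tfam* exactly. The libraries count molecules near the 3′ end of an mRNA, whereas these products end 886–2681 bases before the transcript end in *Nrf1*, 988–3452 in *Gabpa*, and 1722–5401 in *Ppargc1a*. *Gabpa* is therefore given beside *Nfe2l2* in what follows, although it is not among the 8 genes.

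Promoters were searched for the letters of 4 known motifs on both strands, in the RefSeq windows (GRCm38.p6) of 300 bases that run from 250 before to 50 after a gene's start and that were at hand for 7 of the 8 genes. These 7 genes have 8 windows together, and the shares given below are of windows. An NRF-1 motif, GCGCANGCG, was found in the windows of *Tfb2m*, *Polrmt*, and *Esrra*, against 6.25% of all 32851 windows. The stretches are shown on the minus strand, on which the 3 genes lie, with the matches in capitals.
Tfb2m, chr1:179546246-179546274: ctaggtcgttCGCATGCGCcattcgtaat
Polrmt, chr10:79746565-79746593: caggcggCGCGTGCGCGTGCGCactgcgg
Esrra, chr19:6921931-6921959: acaggaggccGCGCACGCGtgtgtatcga
The capitals in *Polrmt* are 2 overlapping matches. A GABP motif, CCGGAAGT, was found in the window of *Tfam* (3.89% of all windows), and neither the ERR motif AAGGTCA (4.72%) nor the CRE motif TGACGTCA (1.79%) was found in any of the 7. A match of letters is a description and does not show binding.

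Of 43445 barcodes, 25431 cells were kept, 1789–7634 per library. Cells were assigned to 9 types by clusters named from marker genes and, among endocrine cells, by the hormone with the most UMIs (unique molecular identifiers, each standing for a captured mRNA). Not all kept cells entered a type. Clusters with a median under 3500 UMIs, too few markers, or as many markers of another type were left unnamed and not compared. Endocrine cells led by insulin outside the β clusters, or by another hormone inside them, were also left out. The largest unnamed cluster held 4814 cells (median 2149 UMIs) and had 5 of 11 β cell markers. Of these, 3112 came from WT library 2, against 19–652 from each other library. The markers of a type were highest in that type for 10 of 11 β cell markers and for every marker of the δ, endothelial, stellate, macrophage, B cell, and T cell lists, but for 5 of 8 α cell markers and 3 of 6 PP cell markers, so that the cells in which *Ppy* led are called *Ppy*-dominant here. Libraries shared 7–27 barcodes per pair before and 1–15 after filtering. The β cell–like sums held 822–1312 cells and 23687570–39226889 UMIs per library. *Ywhaz* in all β cell–like cells was 151 CPM (UMIs scaled to a common library size by TMM) in WT and 18.1 in KO, a log2 fold change of -3.07 (edgeR, adjusted p = 7.88e-07), in the direction of the labels. In the other types it was 0.00 (δ), -0.10 (α), -0.12 (stellate-like), -0.19 (endothelial-like), -0.23 (macrophage-like), -0.38 (*Ppy*-dominant), -0.44 (T cell–like), and -0.56 (B cell–like). None of these was called, and their cause was not tested.

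Across the 9 cell types, the 8 genes did not share a pattern. *Nfe2l2* was highest in macrophage-like, endothelial-like, and stellate-like cells, *Nrf1* was higher in β cell–like cells than in the other endocrine cells, *Ppargc1a* was highest in α cell–like cells and nearly absent from endothelial-like and macrophage-like cells, *Tfam* was highest in B and T cells, and *Esrra* was lower in β cell–like cells than in all 5 nonendocrine types. Each β cell–like sum was compared with the sum of another type from the same library (edgeR's quasi-likelihood test with the library as a term, adjusted over 12383 genes). A call needed an adjusted p under 0.05 together with a log2 fold change beyond 0.1 in either direction. Of 64 comparisons of a gene with a type, 30 were called, 14 with β cell–like cells higher and 16 with β cell–like cells lower. The background was large, since 48.8% of all genes were called against α, 48% against δ, 44.6% against *Ppy*-dominant, 79.3% against endothelial-like, 71.2% against stellate-like, 75.2% against macrophage-like, 75.7% against B cell–like, and 72.3% against T cell–like cells. The 8 genes were thus called no more often than other genes, with 3, 2, 2, 5, 5, 5, 4, and 4 of 8 in the same order of types. CPM in these comparisons were scaled over all 54 sums (9 types in 6 libraries), and are given as mean ± SD of 6 libraries.

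**Figure D1:**
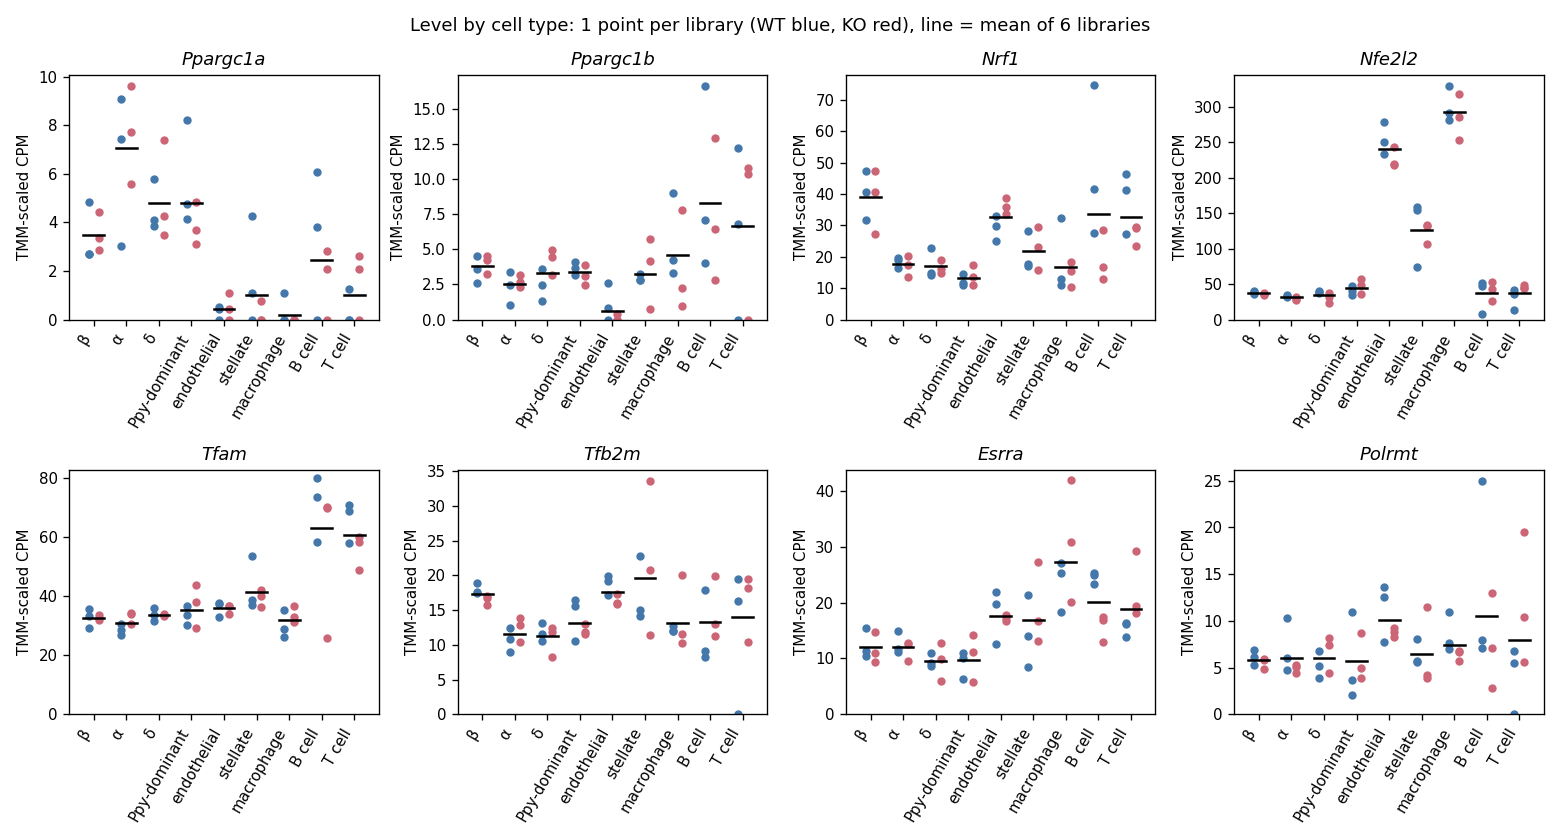
Level of each of the 8 genes (y axis, TMM-scaled CPM, linear from 0) in 9 cell types (x axis), with 1 point per library, WT in blue and KO in red, and a line at the mean of 6 libraries. *Nfe2l2* reaches 293 in macrophage-like cells against 37.0 in β cell–like cells, and the *Tfam* means of B and T cells stand above those of the other types.

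Of the coactivators, *Ppargc1a* (chr5:51454250-51567726, minus strand) was 7.07 ± 2.44 CPM in α cell–like sums, 4.80 ± 1.49 in δ, 4.79 ± 1.81 in *Ppy*-dominant, and 3.48 ± 0.95 in β cell–like sums. In α cell–like sums the WT libraries read 7.43, 9.07, and 3.01 and the KO libraries 9.60, 7.74, and 5.59. In β cell–like sums they read 4.86, 2.68, and 2.68 and 4.44, 3.36, and 2.86. The α level was above the β level in each of the 6 libraries, and the log2 fold change of β over α was -1.01 ± 0.21 (SE, adjusted p = 4.75e-05). Depth was modest, with 108 *Ppargc1a* UMIs in all α sums and 552 in all β sums. The differences of β from δ (-0.36, adjusted p = 0.245) and from *Ppy*-dominant cells (-0.43, adjusted p = 0.199) were not called. With total UMIs in place of TMM the difference from δ was -0.93 and was called (adjusted p = 0.00104).

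*Ppargc1a* was scarce in macrophage-like, endothelial-like, stellate-like, and T cell–like cells. In B cell–like sums it was 2.46 ± 2.34 CPM (45 UMIs in all), which was not called different from β (0.19, adjusted p = 0.568). Macrophage-like sums held 1 UMI in all 6 libraries together against 552 in β cell–like sums. In CPM of all UMIs, pooled over libraries and without TMM, this was a ratio of 17.1 with a 95% counting interval of 3.05–675. Endothelial-like sums held 6, a ratio of 5.31 (2.42–14.5) on the same pooled scale. *Ins2* UMIs, which these cells do not make, show how much free islet RNA such sums hold. The median *Ins2* level over libraries was 6.93% of the β level in macrophage-like, 8.79% in endothelial-like, 20.9% in T cell–like, and 18.8% in B cell–like sums. Each library's own *Ins2* share of its β cell *Ppargc1a* level, averaged over libraries, came to 119% of the level measured in macrophage-like cells. It came to 64.7% in endothelial-like and 68.2% in T cell–like cells, so that the readings of these types are at or near background. In B cell–like cells it came to 24.4%. The call against T cells (1.10, adjusted p = 0.00868) was lost when no doublets were removed (0.30, adjusted p = 0.373).

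*Ppargc1b* (chr18:61298136-61400431, minus strand) had another order. It was 3.80 ± 0.75 CPM in β cell–like sums and 0.63 ± 1.02 in endothelial-like sums, where it had 8 UMIs in all. In pooled CPM of all UMIs, without TMM, the ratio was 4.25 (2.14–9.90, counting interval). The TMM-scaled fit gave a log2 fold change of 2.54. It was 8.34 ± 5.37 in B cell–like and 6.70 ± 5.50 in T cell–like sums, and β cell–like cells were lower than both, with log2 fold changes of -0.79 against B cells (adjusted p = 0.00914) and -1.31 against T cells (adjusted p = 5.94e-05). Single libraries of B and T cells spread widely, from 2.80 to 16.6 and from 0 to 12.2 CPM, and the call against B cells was lost without WT library 2 (-0.69, adjusted p = 0.105) and without KO library 2 (-0.72, adjusted p = 0.0578). Levels in α, δ, and *Ppy*-dominant cells (2.51, 3.32, and 3.40 CPM) were not called different from β, and the α comparison gave 0.66 with an adjusted p of 0.0584.

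Of the transcription factors, *Nrf1* (chr6:30047988-30153458, plus strand) was 39.2 ± 8.14 CPM in β cell–like sums, the highest mean of the 9 types on this scale. With total UMIs the β mean was 31.6 CPM, below those of endothelial-like (37.9), T cell–like (34.8), and B cell–like sums (32.1). It was 17.7 ± 2.45 in α, 16.9 ± 3.26 in δ, and 13.2 ± 2.50 in *Ppy*-dominant sums, and the lowest β library (27.3 CPM) was above the highest library of each of them (20.3, 22.7, and 17.4). The log2 fold changes of β over α, δ, and *Ppy*-dominant cells were 1.13 ± 0.14, 1.22 ± 0.15, and 1.56 ± 0.17 (SE), with adjusted p of 1.64e-09, 1.09e-09, and 5.85e-11. They were smaller but still called with total UMIs, at 0.73, 0.65, and 1.46. *Nrf1* was also higher in β cell–like than in macrophage-like (1.25) and stellate-like cells (0.86), the latter without a call with total UMIs (0.40, adjusted p = 0.0594). B cell–like, T cell–like, and endothelial-like means (33.7, 32.8, and 32.7 CPM) were not called different from β, and the sign of the endothelial difference turned with total UMIs (0.23 against -0.30, adjusted p = 0.0456).

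*Nfe2l2* (chr2:75675513-75704641, minus strand) gave the largest difference in the other direction. Macrophage-like sums read 281, 329, and 291 CPM in WT and 318, 253, and 285 in KO libraries. Endothelial-like sums read 278, 233, and 250 in WT and 242, 217, and 219 in KO. β cell–like sums read 39.5, 38.7, and 36.2 in WT and 35.5, 34.7, and 37.1 in KO, far from both and with little spread. The log2 fold changes of β over macrophage-like, endothelial-like, and stellate-like cells (126 ± 31.8 CPM in the last) were -2.98 ± 0.11, -2.70 ± 0.10, and -1.83 ± 0.11 (SE), with adjusted p of 9.53e-32, 1.68e-30, and 6.98e-21. Free RNA could hardly be seen here, since the *Ins2* share of the β level of *Nfe2l2* came to 0.84% of the macrophage-like and 1.26% of the endothelial-like level. In the other endocrine cells the level was 31.2 ± 2.93 (α), 34.6 ± 6.28 (δ), and 43.8 ± 8.65 CPM (*Ppy*-dominant), none called different from β. With total UMIs, β was called lower than δ (-0.48) and *Ppy*-dominant cells (-0.32), and the sign against α turned (0.25 against -0.14). The call against B cells (-0.31, adjusted p = 0.0233) was lost without WT library 1 (adjusted p = 0.0506), WT library 2 (0.14), KO library 2 (0.336), or KO library 3 (0.457). *Gabpa*, the gene that the primers named Nrf2 match, did not have this distribution: it was 19.0 ± 1.35 CPM in β cell–like, 38.2 ± 4.52 in endothelial-like, 22.6 ± 9.09 in macrophage-like, and 30.1 ± 10.7 in B cell–like sums.

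*Esrra* (chr19:6910977-6921813, minus strand), which codes for an orphan nuclear receptor that PGC-1 proteins coactivate, was 12.1 ± 2.46 CPM in β and 12.1 ± 1.77 in α cell–like sums and 27.2 ± 8.56 in macrophage-like sums. β cell–like cells were lower than macrophage-like cells (log2 fold change -1.19, adjusted p = 4.69e-09), B cells (-0.87, 2.84e-06), T cells (-0.65, 0.000979), endothelial-like cells (-0.55, 0.000542), and stellate-like cells (-0.50, 0.0178). The call against T cells was lost without KO library 2 (-0.40, adjusted p = 0.118). That against stellate-like cells was lost without KO library 2 (-0.44, adjusted p = 0.0558) or KO library 3 (-0.20, adjusted p = 0.405). With total UMIs β was also called lower than α (-0.42), where TMM gave -0.03. *Trmt112* lies over *Esrra* on the opposite strand.

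Of the genes that act on mitochondrial DNA, *Tfam* (chr10:71225464-71238280, minus strand) was nearly level over the endocrine cells, at 32.6 ± 2.05 CPM in β, 30.7 ± 2.98 in α, 33.7 ± 1.45 in δ, and 35.2 ± 5.37 in *Ppy*-dominant sums. It was 62.9 ± 19.5 in B cell–like and 60.7 ± 8.07 in T cell–like sums, and the log2 fold changes of β over them were -1.15 ± 0.09 and -0.90 ± 0.09 (SE, adjusted p = 4.81e-17 and 2.49e-12). Only 1 lymphocyte sum, the B cells of KO library 1 with 26.0 CPM from 12 cells, lay within the range of the β sums or below it. The call against stellate-like cells (-0.30, adjusted p = 0.00859) was lost without WT library 2 (-0.28), KO library 2 (-0.23), or KO library 3 (-0.17). With total UMIs, *Tfam* was also called lower in β than in α (-0.32), δ (-0.61), and endothelial-like cells (-0.67), where TMM gave 0.08, -0.05, and -0.14 and no call.

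*Tfb2m* (chr1:179528055-179546267, minus strand) was 17.3 ± 1.08 CPM in β cell–like sums and was higher there than in α by 0.57, δ by 0.59, *Ppy*-dominant by 0.40, and macrophage-like cells by 0.40 on the log2 scale (adjusted p = 0.000343, 0.000507, 0.0286, and 0.0376). These are 4 of the 5 types in which *Nrf1* was called lower than in β cells. How many other genes were called higher in β over the same types was not counted, and r for *Nrf1* with *Tfb2m* over all sums was 0.04. None of the 4 *Tfb2m* calls held with total UMIs, which gave 0.18, 0.03, 0.30, and 0.22. Total UMIs instead called β lower than endothelial-like (-0.55) and stellate-like cells (-0.59). The call against macrophage-like cells was also lost without WT library 1 (adjusted p = 0.0905), WT library 2 (0.0966), WT library 3 (0.0533), or KO library 1 (0.102), and that against *Ppy*-dominant cells without WT library 2 (0.146) or KO library 1 (0.0598). *Polrmt* (chr10:79736123-79746581, minus strand) was 5.83 ± 0.72 CPM in β and 10.1 ± 2.43 in endothelial-like sums, a log2 fold change of -0.78 (adjusted p = 0.000196), its 1 call in 8 types. With total UMIs it was also called lower in β than in δ cells (-0.55, adjusted p = 0.0365), where TMM gave 0.01. Its other means ranged from 5.71 to 10.5 CPM.

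Scaling by total UMIs moved the comparison of types as a whole. In δ cell–like cells, for example, the median log2 ratio of β over δ of all genes was 0.03 with TMM and -0.46 with total UMIs, and the shift ranged from -0.08 (*Ppy*-dominant) to -0.48 (δ). Of the 30 calls, 25 held with total UMIs in the same direction and 19 held in each of the 11 alternatives run.

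**Figure D2:**
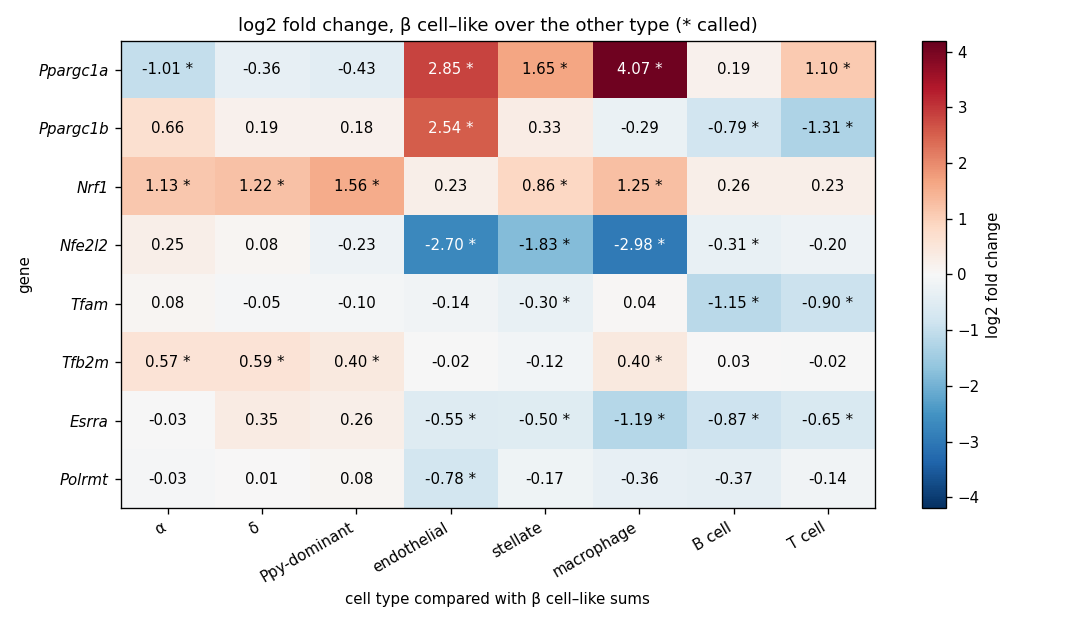
Log2 fold change of β cell–like over each of 8 other types (columns) for the 8 genes (rows), as colour and number, with an asterisk where the gene was called. *Ppargc1a* over macrophage-like cells (4.07) rests on 1 UMI in those cells, and *Nfe2l2* has its lowest values in endothelial-like (-2.70) and macrophage-like (-2.98) cells.

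In the order of cell types for each gene, neighbouring types were compared by an exact permutation test (2-sided, signs flipped within the 6 libraries, log2(CPM + 1)), 64 comparisons in all. The order was set by the means of these same sums. The smallest p that 6 libraries allow is 0.0313. A pair could pass an adjustment over 64 comparisons only if most pairs reached that floor. A failure to pass therefore cannot tell whether neighbours differ. The floor was reached by 5 pairs, each with a Benjamini-Hochberg adjusted p of 0.4, and no pair passed after adjustment. These 5 were *Nfe2l2* in macrophage-like over endothelial-like, endothelial-like over stellate-like, and stellate-like over *Ppy*-dominant cells, *Tfam* in T cell–like over stellate-like cells, and *Ppargc1a* in *Ppy*-dominant over β cell–like cells, with the higher type above in 6 of 6 libraries in each. Of the remaining neighbours, *Ppargc1b* in α over endothelial-like cells (1.24, SD 1.12) and *Nrf1* in endothelial-like over stellate-like cells (0.59, SD 0.44) had a mean log2 difference above its SD, with 5 of 6 libraries in that direction and an exact permutation p of 0.0625 for both, and the others had one below it.

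The genes whose levels ran most alike with each of the 8 over the 54 sums, among 12383 genes, were *Dab2* (Pearson's r = 0.95), *Plin2* (0.94), and *Tnfaip2* (0.94) for *Nfe2l2*, and *Kcnq1ot1* (0.89), *Nefm* (0.88), and *Kcnk12* (0.88) for *Ppargc1a*. For *Tfb2m* they were *Psmd7* (0.87), *Cdk4* (0.85), and *Psmd6* (0.85), and for *Tfam* *Eif3e* (0.86), *Rpl9* (0.84), and *Eif3f* (0.84). The nearest to *Esrra* was *Rhog* (0.81), to *Nrf1* *Gtpbp2* (0.80), to *Polrmt* *Zfp236* (0.74), and to *Ppargc1b* *Stat5a* (0.73). Among the 8 genes themselves the highest r was 0.49 (*Nfe2l2* with *Esrra*) and the lowest -0.54 (*Ppargc1a* with *Esrra*), and r was 0.04 for *Nrf1* with *Tfb2m* and 0.45 for *Nrf1* with *Tfam*. The sums share 6 libraries and differ in depth, so these values describe the sums only.

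The question of the study's design, whether loss of 14-3-3ζ in β cells changes these genes, was addressed in β cell–like cells with KO cells that held a *Ywhaz* UMI left out. The study removed KO β cells with incomplete deletion, and the rule of any *Ywhaz* UMI was set here. WT cells were not filtered by it. The KO cells compared were thus shallower than those left out, with medians of 21789–27710.5 against 23708–33109 UMIs by library. No difference was detected for any of the 8. None was called by edgeR's quasi-likelihood test or by DESeq2, none had an unadjusted p under 0.05 (the lowest was 0.216, for *Nfe2l2*), and WT and KO libraries overlapped for all 8, against 10.8% of all 13347 genes that did not overlap. With all KO cells kept, *Tfb2m* did not overlap (15.3, 14.1, and 14.1 CPM in WT and 13.7, 13.7, and 12.6 in KO) and was not called. The background for calls was 0.00749% of genes, which is *Ywhaz* alone, by which the cells were chosen, and 632 genes had an unadjusted p under 0.05. CPM in these comparisons were scaled over the 6 β sums only and are lower than those above.

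*Ppargc1a* read 3.88, 2.14, and 2.13 CPM in WT and 4.01, 3.02, and 2.25 in KO libraries. *Ppargc1b* read 2.11, 2.91, and 3.57 in WT and 2.52, 3.50, and 3.67 in KO. Both coactivators had KO means slightly above WT and wide intervals, with log2 fold changes of 0.18 (95% interval -0.49 to 0.86, adjusted p = 0.948) and 0.16 (-0.37 to 0.70, adjusted p = 0.947), from 44–127 and 51–124 UMIs per library. KO was above the WT library of the same number in 3 of 3 pairs for both genes. It was below in 3 of 3 pairs for *Esrra*, and the remaining genes had pairs in both directions. The share of all genes with 3 of 3 pairs in the same direction was not counted. With the replicate number as a block the log2 fold changes were 0.18 ± 0.17 and 0.17 ± 0.16 (SE), and neither was called (adjusted p = 0.746 and 0.737).

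*Nrf1* read 37.8, 25.3, and 32.3 CPM in WT and 35.3, 21.8, and 33.0 in KO libraries. *Esrra* read 12.4, 8.37, and 8.99 in WT and 11.4, 8.30, and 8.66 in KO. In both genes library 1 was highest and library 2 lowest within each genotype, and the genotypes lay over each other. The log2 fold changes were -0.08 (-0.50 to 0.35, adjusted p = 0.972) for *Nrf1* and -0.07 (-0.47 to 0.33, adjusted p = 0.9745) for *Esrra*. Library 2 also had the lowest depth of its genotype, with a median of 26196 UMIs per β cell–like cell in WT and 22402 in KO against 28120.5–41403 in the other libraries, and 5.11% and 5.18% of β UMIs on mitochondrially encoded genes against 4.42–4.94%. The part of depth in these levels was not tested.

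*Nfe2l2* read 31.6, 30.9, and 28.8 CPM in WT and 26.9, 26.9, and 30.7 in KO libraries, so KO library 3 lay among the WT values. Its log2 fold change was -0.11 (-0.30 to 0.08, adjusted p = 0.926). *Gabpa* was 15.4 ± 0.82 in WT and 15.0 ± 1.11 in KO (SD, n = 3), which differ by -0.04 on the log2 scale (SE 0.09, edgeR, adjusted p = 0.973).

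*Tfam* read 28.4, 23.4, and 26.3 CPM in WT and 27.0, 26.1, and 24.1 in KO libraries, with a log2 fold change of -0.02 (-0.23 to 0.19, adjusted p = 0.985). *Tfb2m* read 14.0–15.2 in WT and 12.8–14.8 in KO, and *Polrmt* 4.92, 4.21, and 5.51 in WT and 4.75, 4.25, and 4.30 in KO. The log2 fold changes of the latter were -0.09 (-0.29 to 0.11) and -0.14 (-0.47 to 0.19), with adjusted p of 0.930 for both.

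**Figure D3:**
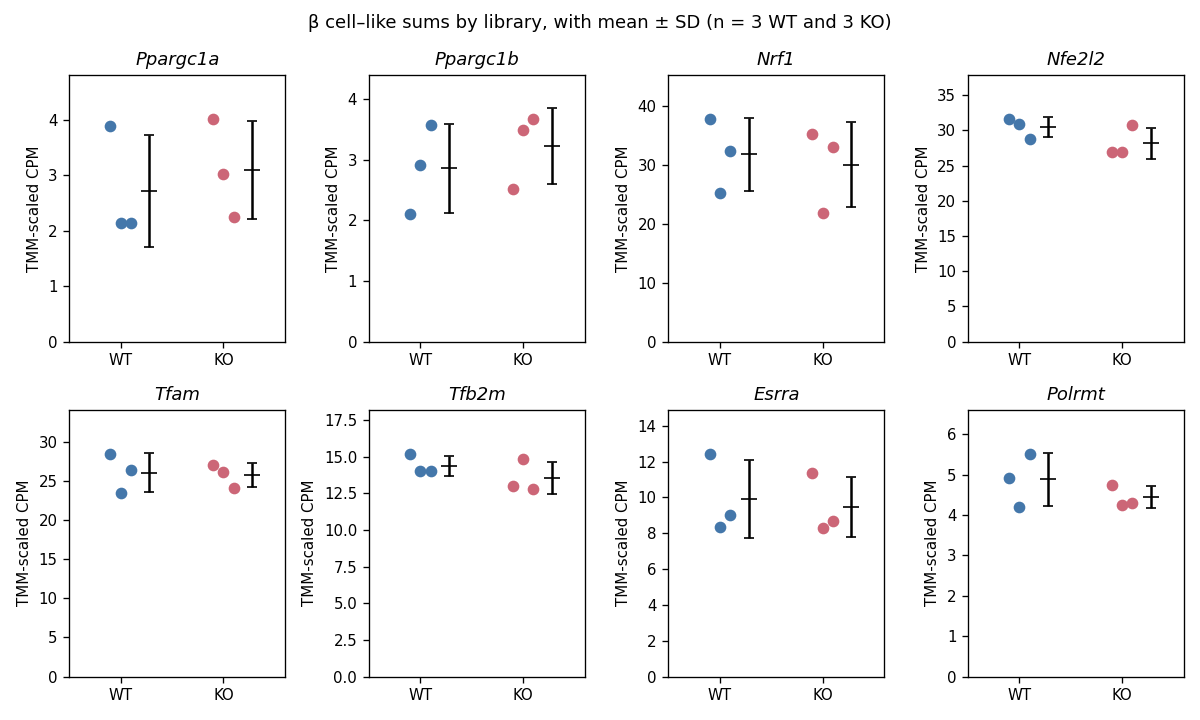
Level of the 8 genes in β cell–like sums (y axis, TMM-scaled CPM, linear from 0) of 3 WT (blue) and 3 KO (red) libraries, 1 point per library, with the mean ± SD beside them. The points of the genotypes overlap in each panel, and library 1 of each genotype has the highest *Nrf1*.

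**Figure D4:**
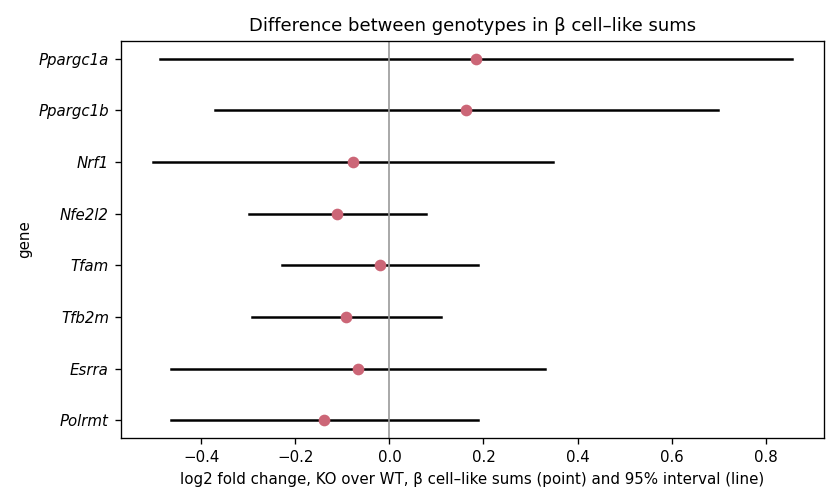
Log2 fold change of KO over WT in β cell–like sums (x axis, points) with its 95% interval (lines) for the 8 genes (y axis). Every interval holds 0, and the widest is that of *Ppargc1a*, from -0.49 to 0.86.

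With the replicate number as a block, 30 genes were called in place of 1, none of them among the 8, whose adjusted p then ranged from 0.639 (*Nfe2l2*) to 0.943 (*Tfam*). The block narrowed the SE of *Nrf1* from 0.19 to 0.07 and gave a log2 fold change of -0.09. Leaving out single libraries turned the sign of *Ppargc1a*, *Ppargc1b*, *Nrf1*, *Tfam*, and *Esrra* and called none of them. *Ppargc1a* gave 0.54 without WT library 1 and -0.07 without KO library 1.

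A *Ywhaz* UMI was absent from 58.2–68.3% of KO β cell–like cells by library, and from 11.4–15.9% of WT cells. Between KO cells with and without one, the ratio of CPM (with over without) was 1.19, 1.16, and 0.96 for *Nfe2l2*, 1.22, 1.06, and 1.00 for *Nrf1*, and 0.81, 0.73, and 1.07 for *Ppargc1a* in KO libraries 1 to 3. Cells with a UMI were also deeper, with medians of 23708–33109 against 21789–27710.5 UMIs.

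The β cell–like cells came from 3 clusters, which differ in how many genes a cell showed, with medians of 5390 (4019 cells), 4271 (1445 cells), and 2045 genes (799 cells). All 8 means were lower in the second than in the first cluster and lower again in the third, in CPM of all UMIs. The share of all genes with the same order was not counted, so the order cannot be read as particular to the 8. *Nrf1* went from 37.0 ± 8.22 to 25.1 ± 5.62 and 9.55 ± 3.24, *Nfe2l2* from 34.4 ± 2.87 to 25.1 ± 3.79 and 7.82 ± 3.71, and *Tfam* from 29.3 ± 2.64 to 22.1 ± 2.79 and 11.3 ± 2.67 (SD, n = 6). *Tfb2m* went down least, from 15.1 ± 0.64 to 12.2 ± 1.74 and 11.6 ± 2.18. The clusters were found without these 8 genes but from the same cells, so no test was made. The first cluster made up 40.0% of β cell–like cells in KO library 2, where 54.8% were in the second, against 66.9–70.7% in the other 5 libraries. The part of this difference in the levels of KO library 2 was not tested.

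In the 8 other cell types, 47 of the 64 combinations of a gene and a type reached a mean of 10 UMIs per sum, and none was called between genotypes by edgeR or DESeq2, with none at an unadjusted p under 0.05 (the lowest was 0.0986, for *Nrf1* in endothelial-like cells). The background of calls was 0% of genes in α, *Ppy*-dominant, endothelial-like, macrophage-like, and stellate-like cells, 0.00965% in δ, 0.181% in B cell–like, and 0.425% in T cell–like cells. *Ppargc1a* was at that depth in α cells only. On the scale set over all sums, WT and KO libraries did not overlap in 7 of the 47 combinations (14.9%), 3 with KO below and 4 with KO above, against 8.84% of all combinations of a gene and a type. With each type scaled on its own, *Tfam* in α cell–like sums overlapped and *Tfb2m* in endothelial-like sums lay below WT, which made 4 below and 3 above.

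*Nfe2l2* was 2 of these in endocrine cells outside the reach of the Cre. In α cell–like sums it read 35.1, 32.2, and 32.8 CPM in WT and 31.6, 27.1, and 28.5 in KO libraries, and in δ cell–like sums 39.5, 38.1, and 37.9 in WT and 37.2, 23.0, and 31.7 in KO. KO lay below WT without overlap in both, and the log2 fold changes were -0.21 ± 0.14 and -0.27 ± 0.16 (SE, edgeR, adjusted p = 1.00 for both). *Tfam* in α cell–like sums (28.4, 30.5, and 26.7 CPM in WT and 34.3, 33.9, and 30.6 in KO) and *Nrf1* in endothelial-like sums (33.0, 29.8, and 24.9 in WT and 38.8, 36.0, and 33.8 in KO) lay above WT on the scale over all sums, with log2 fold changes of 0.20 ± 0.14 and 0.29 ± 0.16 (SE). The other 3 were *Esrra* in B and T cell–like sums and *Nfe2l2* in T cell–like sums, where the smallest sum held 1 UMI.

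The KO effect did not differ detectably between β and α or between β and δ cell–like cells for any of the 8 (interaction term, edgeR over 12620 genes, lowest unadjusted p = 0.141, for *Tfb2m* against α). The background was 0.00792% of genes in each of the 2 tests. For *Nfe2l2* the difference of the effects was 0.11 ± 0.15 against α and 0.18 ± 0.16 against δ (SE), and for *Ppargc1a* -0.16 ± 0.40 and -0.05 ± 0.49.

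The genes around the 8 were followed in 4 lists, again in β cell–like cells between genotypes. None of 82 genes tested was called by edgeR or DESeq2, and 5 had an unadjusted p under 0.05. The partners of PGC-1 and the signals upstream of it (22 of 25 genes tested) split evenly, with 11 genes higher and 11 lower in KO and a median change of -0.00413 on the log2 scale, against 0.00122 over all genes. The corepressor *Ncor1* was 236 ± 9.29 CPM in WT and 236 ± 11.7 in KO, *Yy1* 85.3 ± 9.77 and 81.7 ± 3.81, and the CREB family factor *Atf2* 58.5 ± 2.09 and 56.2 ± 2.25 (SD, n = 3). *Mef2d* and *Sp1* had an unadjusted p under 0.05, with log2 fold changes of 0.20 and -0.20.

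The genes of mitochondrial DNA expression and replication (29 of 30 tested) had 21 higher and 8 lower in KO, with a median of 0.05. The protease *Lonp1*, which degrades TFAM, was 85.7 ± 8.74 CPM in WT and 94.8 ± 11.2 in KO (log2 fold change 0.15, adjusted p = 0.926), the RNA-binding *Lrpprc* 47.1 ± 5.55 and 51.4 ± 6.47, and the single-strand DNA-binding *Ssbp1* 47.7 ± 3.27 and 49.4 ± 5.60. *Mterf1b* had an unadjusted p under 0.05 at 0.744 and 1.19 CPM. The 13 mitochondrially encoded mRNAs, which are what POLRMT, TFB2M, and TFAM transcribe, were higher in KO for 9 and lower for 4, with a median of 0.09. *mt-Co3* was 8762 ± 389.7 and 9218 ± 652, *mt-Co1* 7735 ± 575 and 6939 ± 493, and *mt-Co2* 6739 ± 243 and 7300.5 ± 588 CPM in WT and KO. None of the 13 had an unadjusted p under 0.05. Barcodes with a high share of mitochondrial UMIs had been left out beforehand, a filter that acts on these same mRNAs. The values therefore describe only cells under that cap, and a difference between genotypes above it would be missed. No list gene was called under the looser cap run as an alternative. The part of the filter in the levels of the 13 was not tested. KO library 2 was the highest of the 6 libraries for 8 of the 9, and without it, as ratios of mean CPM and chosen after seeing the data, 6 were higher and 7 lower, with a median of -0.01.

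The regulators and targets of NRF2 (18 of 18 tested) had 6 higher and 12 lower in KO, with a median of -0.06. The peroxiredoxin *Prdx1* was 203 ± 12.8 CPM in WT and 213 ± 17.7 in KO, the thioredoxin reductase *Txnrd1* 179 ± 34.9 and 174 ± 15.9, and *Rbx1*, a subunit of the ubiquitin ligase that acts on NRF2, 145 ± 11.2 and 166 ± 29.1. The glutathione synthesis gene *Gclc* and the cystine transporter *Slc7a11* had an unadjusted p under 0.05, with log2 fold changes of -0.23 and -0.43 (edgeR, adjusted p = 0.926 for both). *Mef2d*, *Sp1*, *Mterf1b*, *Gclc*, and *Slc7a11* were named after their values were seen.

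**Figure D5:**
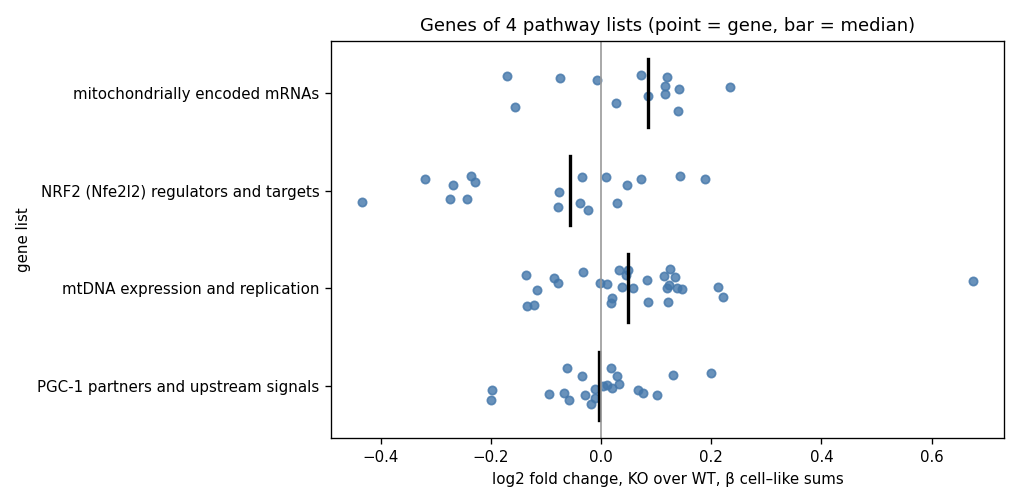
Log2 fold change of KO over WT in β cell–like sums (x axis) for the tested genes of 4 lists (y axis), 1 point per gene with a bar at the list's median (0.09 for mitochondrially encoded mRNAs, -0.06 for NRF2 genes, 0.05 for mitochondrial DNA genes, and near 0 for PGC-1 partners). The points lie on both sides of 0 in each list, and none was called.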

How the data were processed

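Islet single-cell libraries came from 3 WT and 3 β14-3-3ζ–KO mice. The authors deposited whole-number UMI counts per gene and barcode from Cell Ranger 6.0.2 (build mm10, per the submitters' processing notes, which also name Seurat). Coordinates are from GENCODE vM21 (32235 of 32285 identifiers matched). Libraries held 74083947–98294915 UMIs, and counting intervals cover counting error only.

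Barcodes with under 500 genes (3485), over 10% mitochondrial UMIs (12956), or a Scrublet call (1573) were left out. Scrublet's automatic threshold failed in all 6 libraries, so the top-scored barcodes were called instead, as a share that grew with the number of barcodes. Cells were clustered with scanpy 1.11.5 (2000 variable genes without the 8 genes, Leiden resolution 1). Counts were summed per library and type (at least 10 cells) and compared with edgeR 4.0.16 (quasi-likelihood, TMM, mean of 10 UMIs or more, Benjamini-Hochberg). The tests were checked on simulated data. The labels number the replicates and do not say whether equal numbers mark pairs. The deviations of same-numbered WT and KO β sums correlated at 0.37, 0.43, and 0.27. As the labels give no pairs, the main tests of genotype were unpaired, with the replicate number as a block in an alternative. In β cell–like sums the block raised the genes with an unadjusted p under 0.05 (edgeR) from 632 to 1551 of 13347. No libraries were copies (chi-square per degree of freedom 10.1–89.8). Named genes were the 8, the 3 of highest mean CPM in each list, every called gene, and the 3 nearest genes by correlation. Alternatives were DESeq2 1.42.0, other scalings, filters, cell definitions, and leaving out each library. Members and lists were chosen with earlier results of these data known. Dendritic-like and ductal-like cells fell below 10 cells in at least 1 library and were not compared. For the comparison of genotypes in β cells, KO cells holding any *Ywhaz* UMI were removed. The interaction and the comparison of cell types kept all cells. P-values rest on 1 library per mouse.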

Additional observations from a re-analysis of the deposited data

Results flagged for a closer look

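Of 55 combinations of a gene and a cell type with a mean of 10 UMIs or more, 5 had a library that stood apart from the other 5 of its cell type by the gap to its nearest neighbour over the whole range (Dixon's 95% value). Chance flags about 1 in 20 such groups. The values are in CPM scaled over all sums. In macrophage-like cells *Nrf1* was 32.4 in WT library 3 against 10.2–18.3 in the others, and *Tfb2m* was 20.03 in KO library 3 against 10.2–12.7. In stellate-like cells *Tfam* was 53.6 in WT library 3 against 36.1–41.9. In T cell–like cells *Esrra* was 29.2 in KO library 1 against 13.8–19.3. In α cell–like cells *Polrmt* was 10.3 in WT library 2 against 4.46–6.02. They came from 46 and 66 macrophage-like, 23 stellate-like, 15 T cell–like, and 127 α cell–like cells, in the same order of genes and cell types.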

How the results depend on the processing

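The count of the 8 genes called between genotypes stayed at 0 in β cell–like cells, in the other types, and in the interaction under the alternatives run for each, as did the count of list genes; with a UMI required in over 15% of cells, 5 of the 8 were tested (not *Ppargc1a*, *Ppargc1b*, or *Polrmt*). With the replicate block it was also 0 of the 8 (30 genes called in all). DESeq2 called 9 genes, total UMIs 4, and no low-count filter 13, in place of 1, none of the 8. Signs that turned in β cell–like cells were those of *Tfam* with all KO cells kept (0.00415) or with a hormone share gate (0.0440), and of *Esrra* with up to 20% mitochondrial UMIs (0.00547); the cause was not tested. Leaving out each library gave log2 fold changes from -0.0703 to 0.54 for *Ppargc1a*, -0.0217 to 0.36 for *Ppargc1b*, -0.21 to 0.10 for *Nrf1*, -0.0890 to 0.0472 for *Tfam*, and -0.23 to 0.13 for *Esrra*, while *Nfe2l2* (-0.18 to -0.08), *Tfb2m* (-0.16 to -0.05), and *Polrmt* (-0.23 to -0.04) stayed negative. Between types, 25–37 of 64 comparisons were called, against 30. Depth limits *Ppargc1a* and *Ppargc1b* most, and 17 of 64 combinations outside β cells were too shallow to test.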

Other observations

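Ductal-like and dendritic-like cells were in too few cells to compare, and their levels are given as CPM of all UMIs in the libraries with 10 cells or more. In ductal-like sums (5 libraries) *Nfe2l2* was 206–252, *Tfam* 39.6–57.9, *Tfb2m* 25.5–47.5, *Nrf1* 21.1–32.1, *Esrra* 11.3–18.6, and *Polrmt* 7.09–13.2, and *Ppargc1a* and *Ppargc1b* rested on 27 and 6 UMIs in all. In dendritic-like sums (4 libraries) *Nfe2l2* was 14.8–84.1, *Tfam* 10.5–39.6, *Nrf1* 10.5–28.5, and *Esrra* 13.1–29.7, and *Ppargc1a* rested on 7 UMIs.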
